A study of Rattus norvegicus with 9 samples.

Results

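Between control, model and treated rats, 32 array probes had a mean signal that was higher in cortex after cerebral ischemia-reperfusion injury (CIRI) and lower in injured cortex treated with Buyang Huanwu Decoction (BHD). They were found among 32860 probes of the deposited table, in the class whose names begin with ASRN6AP1B, and the files pair none of the 32 with a gene. Each of the 18 columns of log2 signal was set to a median of 0 over all probes. A probe was a member when the model mean exceeded the control mean by at least 0.585 on the log2 scale (1.5-fold) and the BHD mean lay at least as far below the model mean, in both RNA fractions, with signal well above background on the 3 model arrays. Of 24371 probes of the class, 19856 had such signal and could be members, and these serve below as the background. The members were thus chosen by the mean differences of model against control and of BHD against model, so those differences are described and not tested.

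The arrays measured cortex of male rats, 8 weeks old when bought per the methods of the study, with 1 array per rat. The control group held 3 rats labelled normal, which per the methods were operated on without occlusion of the artery. The model group held 3 rats killed on day 7 after 2 h of middle cerebral artery occlusion, and the BHD group 3 rats with the same injury and 7 days of the decoction, whose dose is not given in the sources used here. On each array, RNA bound by an antibody against N6-methyladenosine (the IP fraction) carried Cy5 and the RNA left in the supernatant (Sup) of the same rat carried Cy3, with no dye swap. By scan time the controls and model replicate 1 shared slide 1, model replicates 2 and 3 and BHD replicates 1 and 2 shared slide 2, and BHD replicate 3 was on slide 3.

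N6-methyladenosine (m6A) is a methyl mark that a methyltransferase complex writes on RNA, demethylases remove and reader proteins recognize, and it affects RNA splicing, stability and translation. In the IP and Sup fractions of one sample, a higher ratio of IP to Sup stands for a larger methylated share of a transcript, whereas the sum of both follows its amount. In ischemic cortex neurons die and glia and invading leukocytes react, so the cell makeup of the tissue changes as well, and BHD is a traditional herbal decoction given after stroke. In bulk cortex, fewer cells of a type and less RNA per cell cannot be told apart. The neuronal transcript Map2, which encodes a dendritic microtubule protein, has a probe that is not in the deposited table. Map2 was well above background in all 10 of its spots on every array. Its IP log2 signal was 5.65 to 5.90 in the controls, 5.25 to 5.53 in the model group and 4.92 to 5.24 with BHD. The model and BHD ranges thus nearly met in IP. All model arrays lay above all BHD arrays in IP for 16.4% of the background probes as well. In Sup the groups overlapped, at 3.33 to 3.83 in the controls, 3.01 to 3.36 in the model group and 3.12 to 3.33 with BHD. The model mean of Map2 differed from the control mean by −0.42 in IP and −0.36 in Sup, and the BHD mean from the model mean by −0.30 and 0.05. The part of neuronal content in the members' values was not tested. It was the only 1 of 39 marker and m6A machinery genes that could be matched to a probe, so glial, vascular and leukocyte content was not measured here.

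The members differed between the groups by more than the threshold required. In the IP fraction the model mean exceeded the control mean by 0.63 to 3.14 on the log2 scale, with a median of 1.30, and in Sup by 0.64 to 3.38, with a median of 1.25. The BHD mean lay below the model mean by a median of −1.78 in IP (−3.77 to −0.66) and −1.66 in Sup (−3.86 to −0.79). These sizes depended on the processing. On the scanner's median intensities after normexp and loess, the medians over the 32 were 0.38 in IP and 0.56 in Sup for model against control and −0.68 and −0.90 for BHD against model, and 11 of the 32 met the rule. Over the 19856 background probes the 4 medians were −0.01, −0.04, 0.03 and 0.06. Among the background probes 3.91% were higher in the model group by 1.5-fold or more in IP, 5.97% in Sup and 2.57% in both. With BHD, 8.73% were lower in IP, 7.13% in Sup and 3.48% in both. Of the 511 probes higher in the model group, 6.26% were also lower with BHD, which gives the 32 members, or 0.161% of the background. The members closest to the threshold had a smallest difference of 0.63, 0.64 and 0.64, and the probes just outside it had 0.57 each.

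**Figure D1:**
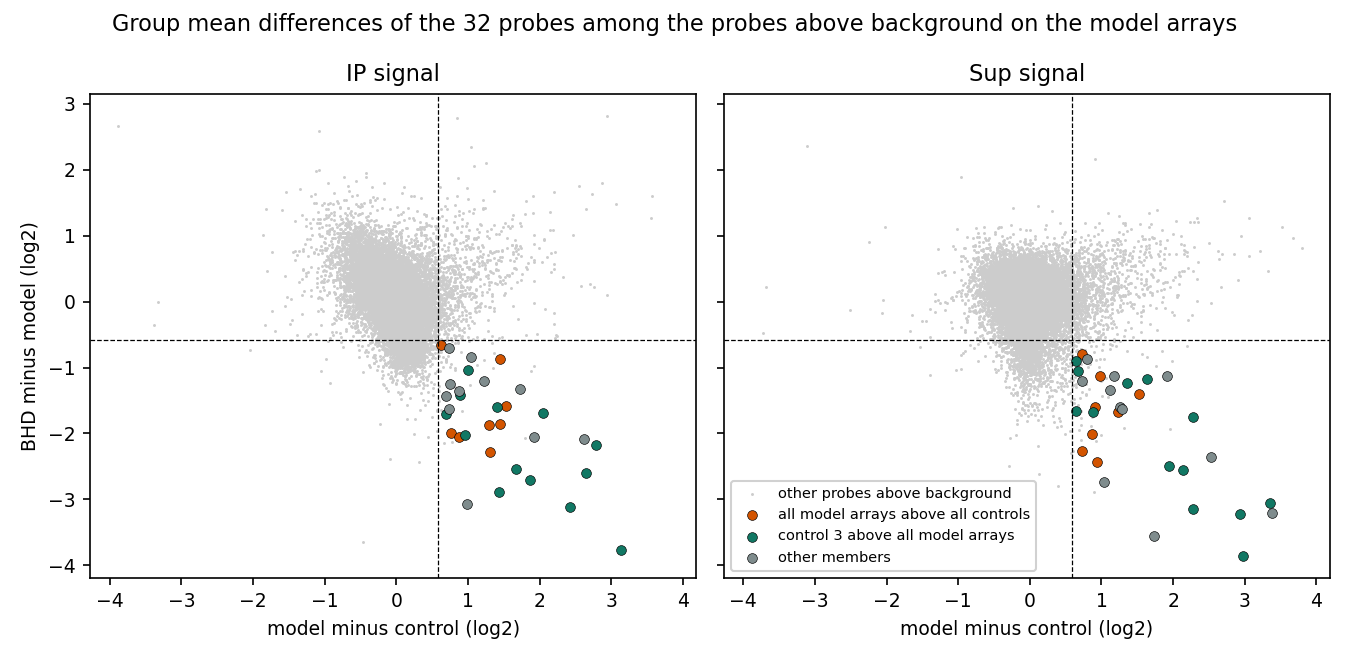
Each point is 1 probe, with the group mean difference of model minus control on the horizontal axis and of BHD minus model on the vertical axis (both log2), for the IP and the Sup fraction. Grey points are the other probes among the 19856 above background on the model arrays, dashed lines are the threshold of 0.585, and the 32 members lie in the lower right corner of both panels, with colors for the 8, 13 and 11 members described in the text.

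The group means did not show how the single rats were ordered. The 3 model arrays lay above all 3 control arrays for 8 of the 32 members in IP (6.18% of the background probes), 9 in Sup (7.69%) and 8 in both (2.09%). They lay above all 3 BHD arrays for 13 members in IP (16.4%), 17 in Sup (6.3%) and 12 in both (2.71%). For 5 members both held in both fractions, against 0.0504% of the background probes, or 10 probes with these 5 among them. The rule used the means of these same arrays, so shares above those of the background are partly fixed by it. For 13 other members control replicate 3 had a signal above every model array in both fractions, which was so for 18.8% of the background probes.

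Within those 5 members the model group overlapped neither the control nor the BHD group. The probe ASRN6AP1B10329351311, which had the largest of the smaller fraction's differences between model and control among them, was bright. Its IP log2 signal was 4.54, 5.67 and 5.34 in the controls, 6.14, 6.43 and 6.86 in the model group and 4.63, 4.12 and 5.07 with BHD. Its Sup signal was 3.95, 5.12 and 4.57, then 5.47, 5.40 and 5.49, then 3.93, 3.56 and 4.08 in the same order. Every model rat was above every other rat in both fractions, and control and BHD rats overlapped. The model mean was 2.45-fold the control mean in IP and 1.87-fold in Sup, and the BHD mean was lower than the model mean by 3.66-fold and 3.02-fold.

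The probe ASRN6AP1B10120910811 ranked second for the difference with injury and second for that with BHD. Its IP log2 signal was 2.15, 1.08 and 1.68 in the controls, 2.55, 2.85 and 3.42 in the model group and 0.60, 0.30 and 1.10 with BHD. Its Sup signal was 1.97, 1.49 and 1.71, then 2.54, 2.62 and 2.63, then 0.69, 0.41 and 0.65. The model rats were the highest, and the BHD rats lay below all controls in Sup, as 2 of the 3 did in IP. The means in Sup were 1.72 ± 0.24, 2.60 ± 0.05 and 0.58 ± 0.15 (SD, n = 3 each).

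The probe ASRN6AP1B10450970311 had the largest of the weaker fraction's differences between BHD and model. Its IP log2 signal was 1.90, 0.52 and 1.65 in the controls, 2.25, 2.03 and 2.43 in the model group and 0.15, 0.29 and 0.11 with BHD. Its Sup signal was 1.48, 0.22 and 1.30, then 2.03, 1.58 and 1.58, then −0.37, −0.25 and −0.99. All BHD rats lay below all controls in both fractions, and control replicate 2 was the closest to them. The BHD mean was lower than the model mean by 4.15-fold in IP and 4.81-fold in Sup. On the scanner's median intensities after normexp and loess, the log2 differences between BHD and model were −1.43 in IP and −1.30 in Sup. There the model mean exceeded the control mean in Sup by 0.49, below the threshold. Without control replicate 2, the model mean of this probe exceeded the control mean by 0.46 in IP and 0.34 in Sup, both below the threshold. The 2 remaining members in which the model rats lay above all others were a dim probe, with model means of −1.31 in IP and −1.33 in Sup, and a bright one at 3.74 and 6.20 that was the member nearest to the threshold.

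**Figure D2:**
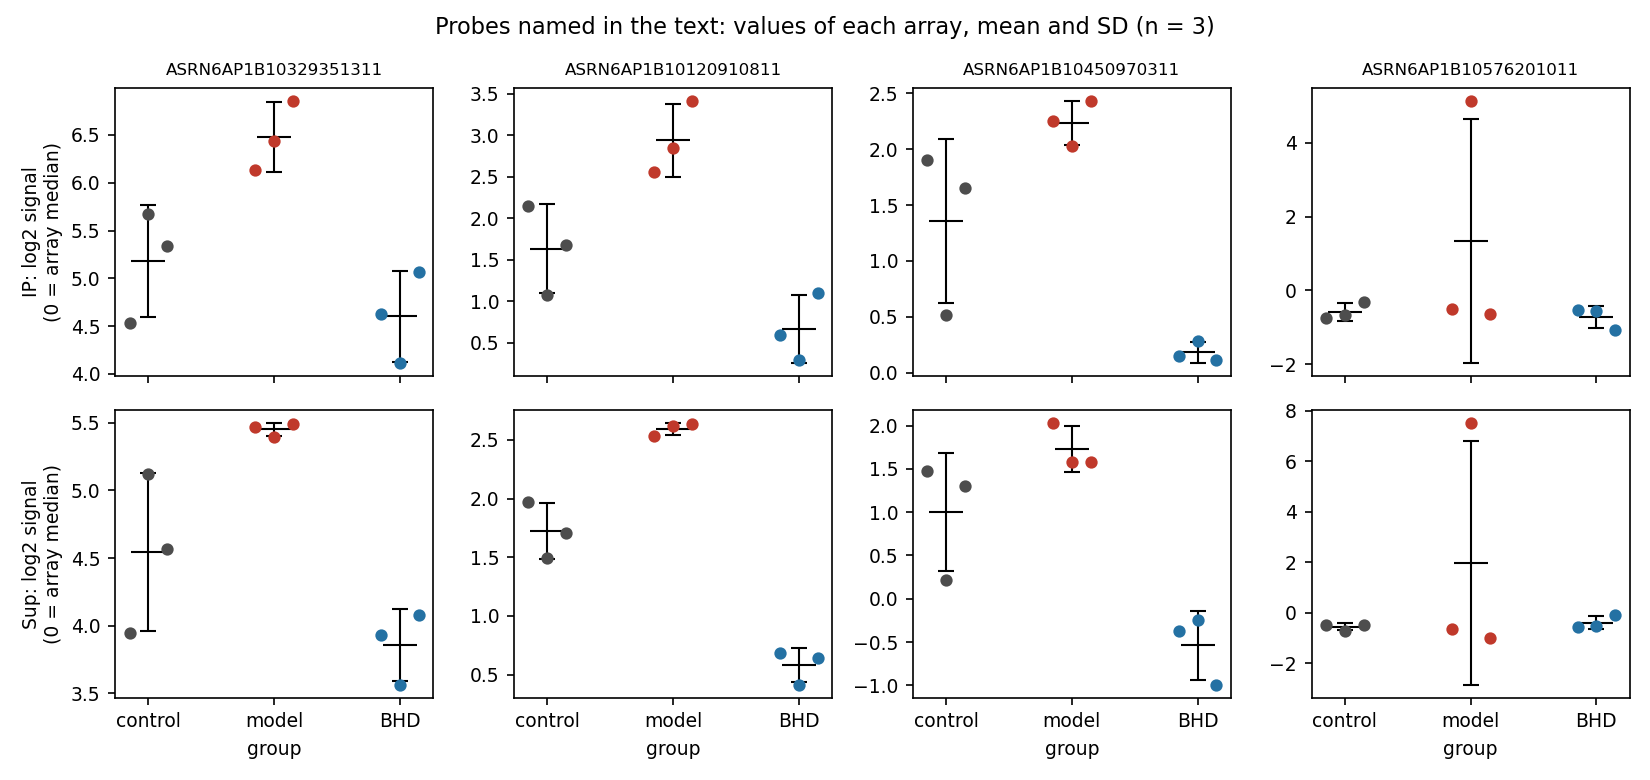
Log2 signal (0 is the median of the array over all probes) of 4 members in the IP fraction (top) and Sup fraction (bottom), with 1 point per rat and the mean and SD of the 3 rats in black. In the first 3 probes the 3 model rats lie above all other rats, and in the fourth, ASRN6AP1B10576201011, 1 model rat at 5.14 in IP and 7.53 in Sup sets the model mean.

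The member ASRN6AP1B10576201011 was singled out after its values were seen, since model replicate 2 alone set its model mean. On that array its IP and Sup log2 signals were 5.14 and 7.53, and on the other 8 arrays they lay between −1.07 and −0.09. The scanner software marked that spot as an outlier. The local background intensity around it was 1505 in the IP channel and 12270 in the Sup channel, against 11.5 to 18 on the other arrays, while its 23 neighboring spots had median intensities of 64.5 and 36. Without spots marked as outliers on any array, 27 of the 32 members remained. In all, 5 members had 12 marked spots over the 9 arrays. Apart from this probe, they were all among the 8 members whose model arrays lay above every control in both fractions. The bright member nearest to the threshold was 1 of them.

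Control replicate 3 stood apart from the other controls over the members as a whole. Its IP signal exceeded the mean of control replicates 1 and 2 by a median of 2.27 on the log2 scale, and its Sup signal by 2.58. It was at least 2-fold above both of them, in both fractions, for 18 of 32 members, against 0.896% of the background probes. Among the 479 probes that were higher in the model group but were not members, the share was 4.18%. Of the 9 arrays it had the highest signal for 14 members in IP and 13 in Sup. BHD replicate 2 was likewise at least 2-fold above both other BHD rats for 8 members, against 0.0755% of the background probes, 7 of them among the 13 members in which control replicate 3 exceeded all model arrays. Over the background probes, however, BHD replicate 3 stood apart from its group most often. It was at least 2-fold above both other BHD rats in 2.53% of them and below both in 3.06%. Among the members it was above both in 4 and below both in 6. The median SD between controls was 1.81 for the members in IP, against 0.24 over the background probes. It was 0.52 between model rats, against 0.20, and 1.03 between BHD rats, against 0.27. The rule asks for signal above background on the model arrays only, so the order of these SDs is partly fixed by it.

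**Figure D3:**
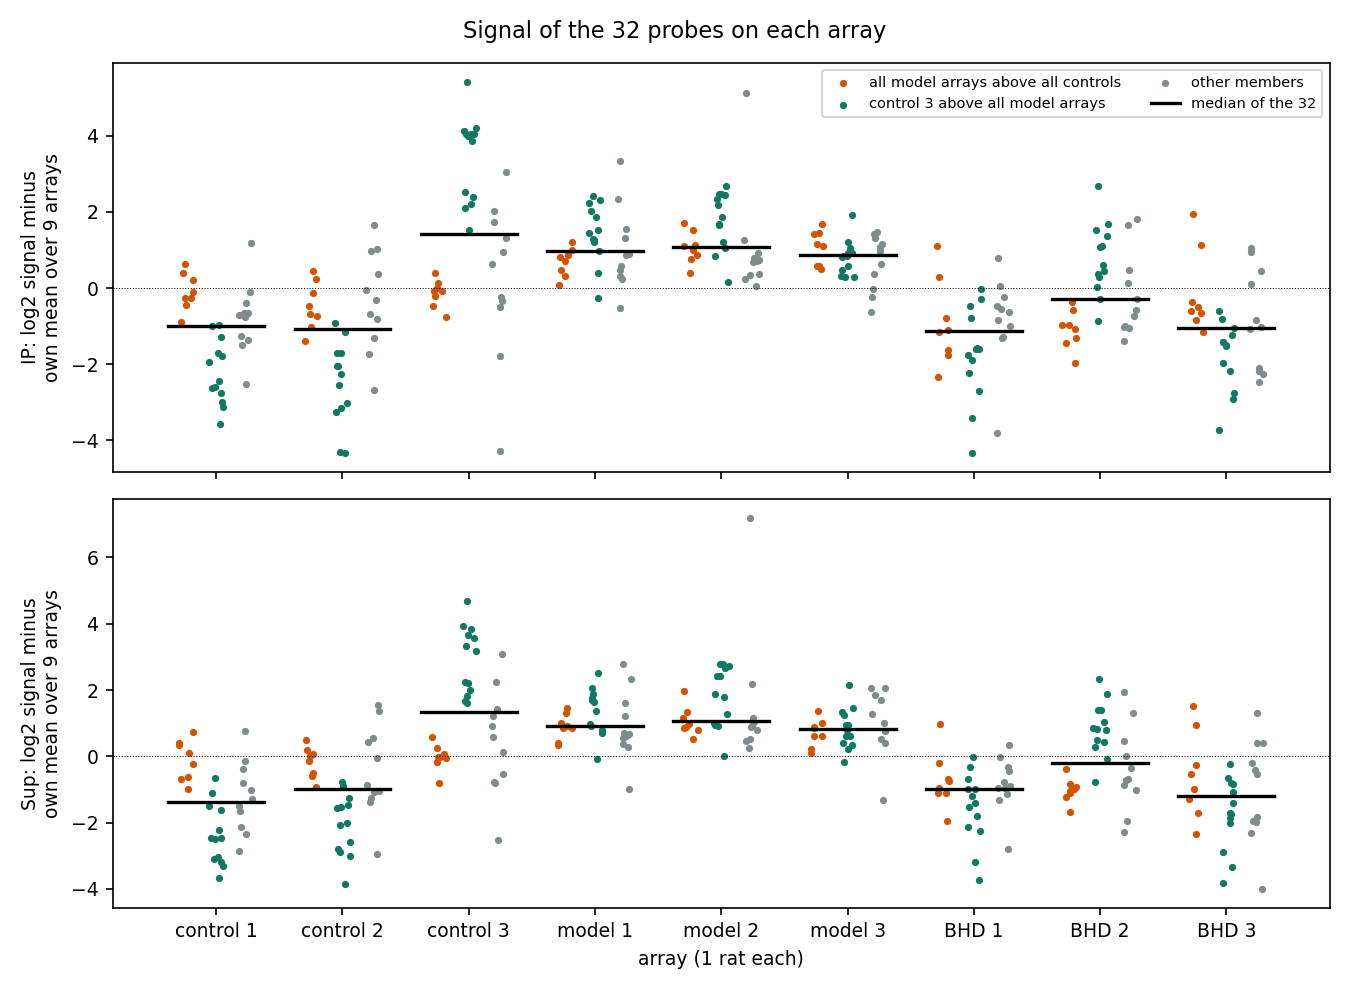
Log2 signal of each of the 32 members on each array, minus that member's mean over the 9 arrays, for the IP fraction (top) and the Sup fraction (bottom), with 1 point per member and a black bar at the median of the 32. The median over the members is higher on control 3 (1.42 in IP) than on any model array (0.88 to 1.08), and lies at −1.13 to −0.98 on control 1, control 2, BHD 1 and BHD 3.

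In the 13 members in which control replicate 3 exceeded every model array, the choice itself sets control replicates 1 and 2 low and control replicate 3 high, so a correlation between these members is largely fixed by it and none is given. The median IP signal of the 13 was 3.10 on control replicate 3, 1.05, 1.23 and −0.09 on the model arrays and 0.44 on BHD replicate 2. It was −3.38 and −3.37 on control replicates 1 and 2, and −2.48 and −2.73 on BHD replicates 1 and 3. The choice of the 13 does not set the order of the BHD rats, of which replicate 2 was the highest in 12 of the 13 members in each fraction, and at least 2-fold above both others in both fractions in 7. This split into 8, 13 and 11 was made after the values were seen.

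The member ASRN6AP1B10001949411 was 1 of these 13 and was also chosen after its values were seen. It was well above background on the 3 model arrays but on only 1 of 3 control and 1 of 3 BHD arrays, in both fractions. Its IP log2 signal was −4.94, −4.50 and 2.84 in the controls, 0.96, 1.31 and 0.55 in the model group and −5.69, 1.32 and −4.11 with BHD. Its Sup signal was −4.80, −4.27 and 1.88, then 0.17, 1.10 and 0.47, then −5.42, 0.64 and −5.05. In each of the control and BHD groups 1 rat lay within or above the range of the model rats, and the values of the others, not well above background, give no measured level.

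**Figure D4:**
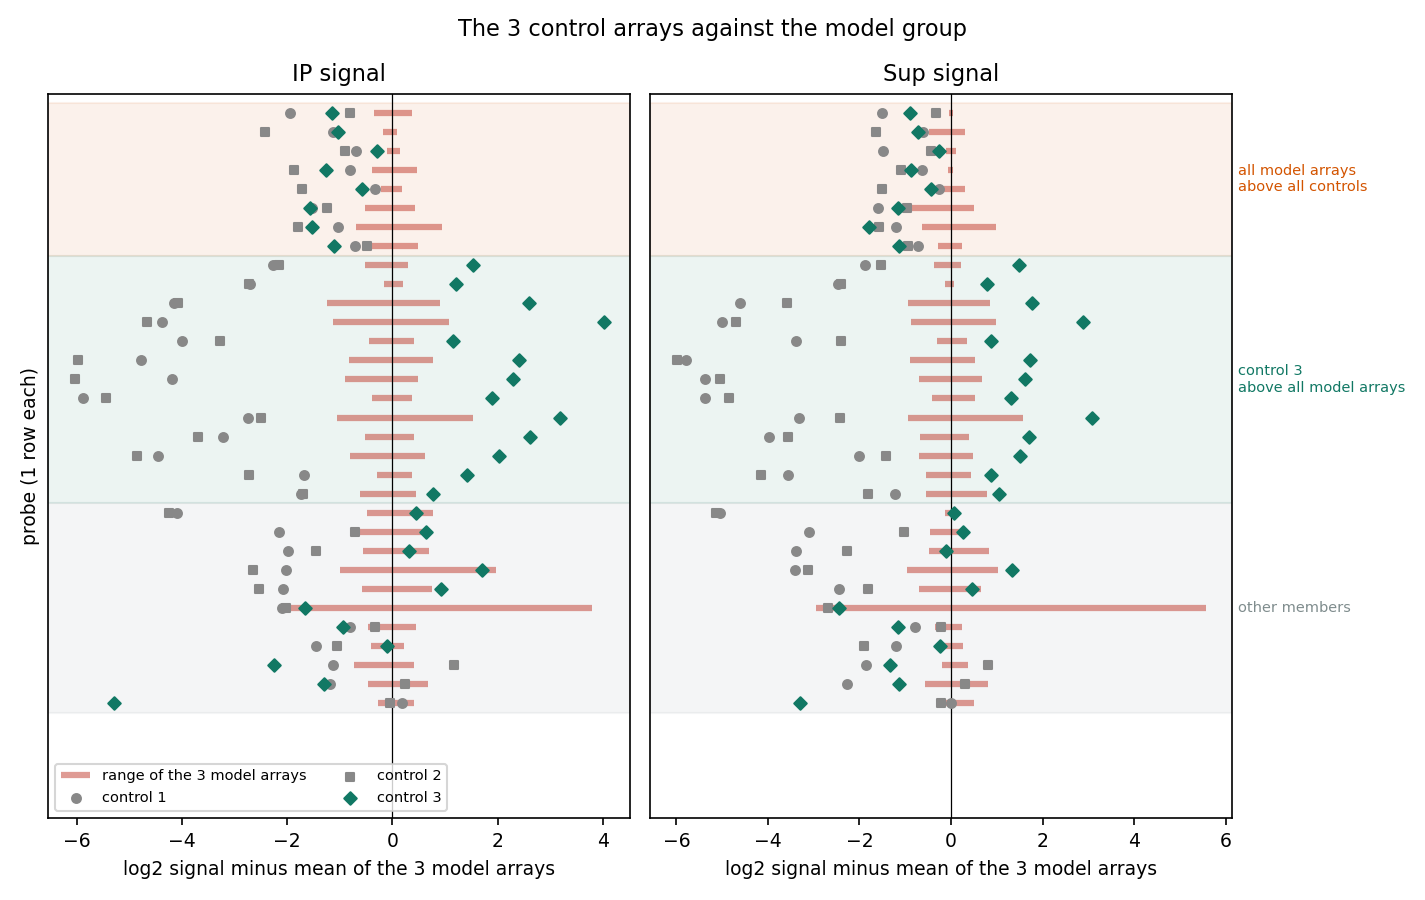
Each row is 1 member, with the log2 signal of the 3 control arrays relative to the mean of the 3 model arrays (0) and the range of the model arrays as a red bar, for the IP and the Sup fraction. In the 13 members of the middle band, control 3 (green diamonds) lies to the right of the model range while controls 1 and 2 lie to its left.

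Without control replicate 3, the members' median difference between model and control was 1.92 in IP and 1.89 in Sup, and 28 and 29 of the 32 exceeded the 1.5-fold difference. The rule then found 60 probes, 28 of them among the 32. Of the arrays left out in turn, each model array also moved the number, to 57, 71 and 67, with 25, 26 and 27 of the 32 kept. There, signal above background was asked only on the remaining model arrays. The looser filter and the array left out thus cannot be told apart. The part of tissue sampling, RNA quality or hybridization in the values of control replicate 3 was not tested. Among 30 named genes with 10 spots each, of which 21 were above background on the model arrays, 0 met the thresholds of the rule. Their probes are not in the deposited table and could not be members. The rule held for 0.161% of the background probes, so 0 among so few says little. Ptk2b, which encodes a calcium-activated tyrosine kinase, was lower in control replicate 3 than in the other controls by −2.76 in IP and −2.32 in Sup (singled out after its values were seen).

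The controls and model replicate 1 shared a slide, as did 2 model and 2 BHD rats, but the means of these arrays chose the members, so the direction within slides is largely fixed by the rule. Model replicate 1 exceeded the mean of the controls on its slide in 31 of 32 members in IP and 30 in Sup, with medians of 1.35 and 1.25, and in 53.9% and 51.8% of the background probes. On slide 2, the mean of BHD replicates 1 and 2 lay below the mean of model replicates 2 and 3 in 32 of 32 members. This held in both fractions, by medians of −1.71 and −1.67, and in 51% and 44.1% of the background probes. The single arrays were not ordered this way in every member. All 4 differences passed the threshold within slides for 22 of the 32, and the rule applied within slides found 43 probes in all.

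Signals near the background were common outside the model group. The rule asks for signal well above background on the model arrays only, so this contrast between the groups is partly fixed by it. In Sup, 14 and 16 of the 32 members were well above background on control replicates 1 and 2, 30 on control replicate 3, and 21 to 27 on the BHD arrays. Among the background probes these shares were 92.6% to 99.8%. In both fractions on all 9 arrays, 11 members were well above background. For 3 members no BHD array was well above background in at least 1 fraction, so their difference is a lower limit there. The model mean was at least 5.15-fold and 2.24-fold the BHD level in IP for 2 of them, and at least 3.73-fold, 1.98-fold and 2.91-fold in Sup for the 3, with that level taken per array as the higher of the probe's own signal and the lowest signal well above background.

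The IP and Sup signals of a member moved together, and the median difference in their ratio was near 0. Over the 9 arrays the correlation of IP with Sup within a member had a median of r = 0.966, against 0.651 over the background probes, with both signals taken from the same array and spot. The rule asks for the same direction in both fractions, so a high value is partly fixed by it. The difference in log2(IP/Sup) between model and control had a median of −0.08 over the members, from −1.28 to 1.78. It was higher by 1.5-fold or more in 1 member (2.39% of the background) and lower in 6 (7.68%). Between BHD and model the median was 0.11, with 6 members higher by 1.5-fold or more (8.62%) and 1 lower (4.94%).

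Many log2(IP/Sup) values of the members rest on signals near background, since 14 and 16 of the 32 were well above background in Sup on control replicates 1 and 2, and such values give no m6A level. In the 11 members well above background in both fractions on all 9 arrays, the group means of log2(IP/Sup) had medians of 0.04 in controls, 0.35 in the model group and 0.08 with BHD. Over these 11 the model minus control difference had a median of 0.15 (−0.61 to 0.54) and the BHD minus model difference one of −0.23 (−0.45 to 0.53), opposite in sign to the medians over all 32. Over the 32, the control mean of log2(IP/Sup) had a median of 0.34 over the members, from −4.31 to 2.69, and 22 of 32 were above 0, against a median of −0.02 and 9736 of 19856 background probes. In the model and BHD groups the members' medians were 0.17 and 0.34. For ASRN6AP1B10329351311 it was 0.64 ± 0.12 in controls, 1.02 ± 0.35 in the model group and 0.75 ± 0.22 with BHD (SD, n = 3 each), with ranges that overlapped. For ASRN6AP1B10450970311 it was 0.36 ± 0.06, 0.50 ± 0.32 and 0.72 ± 0.34. The members' signals in the model group, with a median of 0.71 in IP and 0.75 in Sup, were below the background's medians of 1.18 and 1.11.

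The BHD group was also compared with the control group, a difference whose sign the rule does not set, although both group means enter the rule. In IP the BHD mean was below the control mean in 23 of 32 members, with a median difference of −0.50 (−2.08 to 0.61), and in Sup in 23 of 32, with a median of −0.33 (−1.82 to 0.78). The direction rested on control replicate 3, without which the medians were 0.24 in IP and 0.33 in Sup and the BHD mean was above the control mean in 20 of 32 members in each fraction. All controls were on slide 1 and all BHD rats on slides 2 and 3, so slide and group cannot be told apart in this comparison. A member was called where the groups differed by 1.5-fold or more with an unadjusted p under 0.05 in limma, fitted over 32860 probes on all 9 arrays. In IP 3 members were called lower with BHD, as were 4.28% of the background probes, and 0 higher (5.62%). In Sup 5 were called lower (6.36%) and 0 higher (8.02%), and in log2(IP/Sup) 1 lower (0.972%) and 0 higher (1.45%). None passed Benjamini-Hochberg adjustment in limma, at which 3, 6 and 2 of all probes were called, and 3, 5 and 3 members had an unadjusted p under 0.05. Some members called in Sup had no BHD array well above background in Sup. The dim member called in IP had 1 such BHD array in IP. The member called in log2(IP/Sup) was well above background on only 1 control and 1 BHD array in both fractions. These calls thus rest in part on signals near background. The members not called were not shown to be back at the control level, since the intervals were wide. Over all 32 members the median half-width of the 95% interval was 1.94 in IP and 1.80 in Sup, against 0.548 and 0.596 over all probes.

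All 3 members called in IP, and 4 of the 5 called in Sup, were among the 5 in which the model rats lay above all others. For ASRN6AP1B10120910811 the Sup signal differed by −1.14 (standard error 0.19, limma adjusted p = 0.105) and the IP signal by −0.97 (0.33, limma adjusted p = 0.278). For ASRN6AP1B10450970311 the differences were −1.54 in Sup (standard error 0.35, limma adjusted p = 0.140) and −1.17 in IP (0.32, limma adjusted p = 0.217). For ASRN6AP1B10329351311 the Sup difference of −0.69 was called (standard error 0.29, limma adjusted p = 0.254) and the IP difference of −0.58 was not. Without control replicate 3, 8 members were called in IP and 8 in Sup, 4 of them higher and 4 lower in each. Over all 32860 probes, 3141 were then called in IP and 4189 in Sup, against 3573 and 4964 with every array kept.

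**Figure D5:**
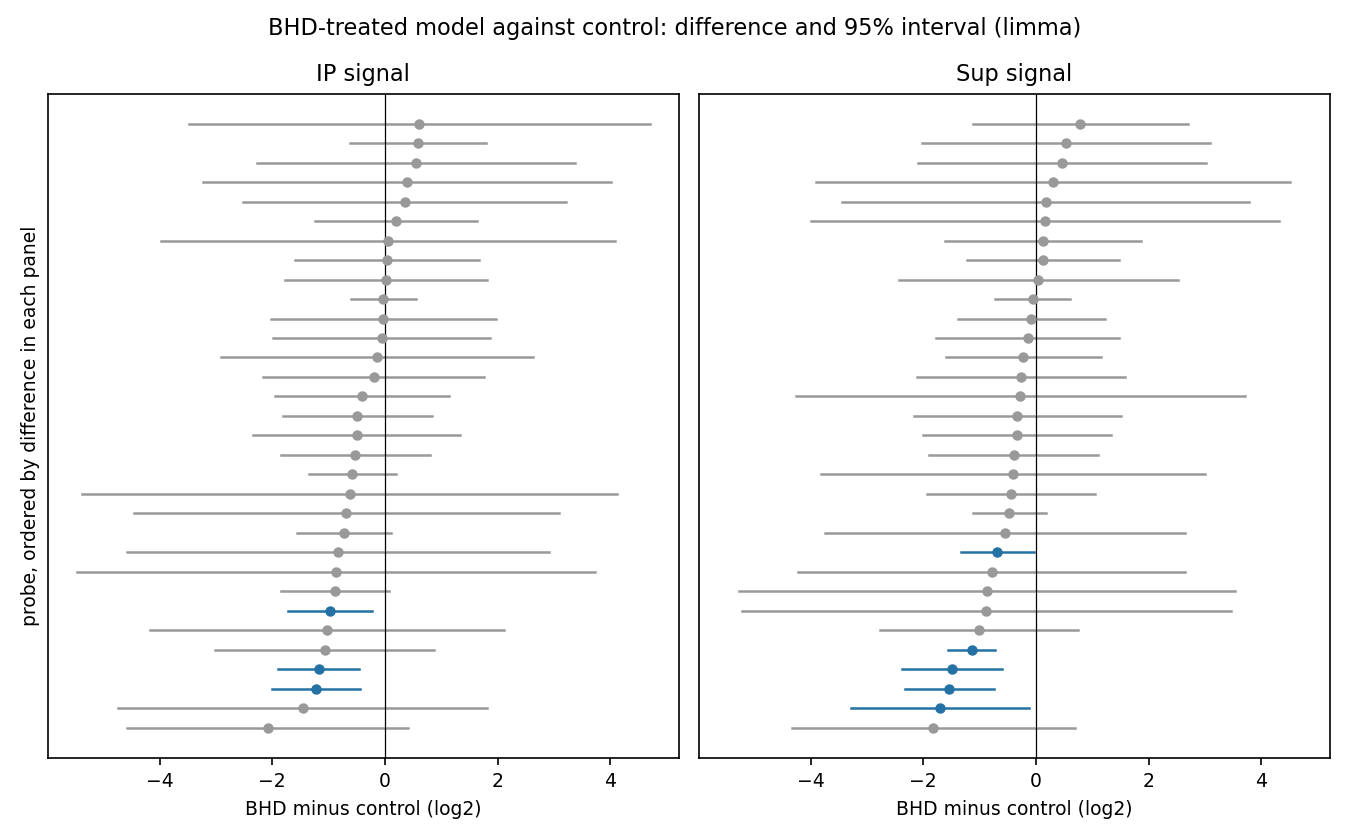
Difference between the BHD and the control group (log2) with its 95% interval from limma, with 1 row per member, ordered by difference, for the IP and the Sup fraction. The 3 members in IP and 5 in Sup that were called are blue, all to the left of 0, and the grey intervals of the others all include 0.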

How the data were processed

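Two-color arrays of IP and Sup RNA from 9 rats were used. The authors scanned them with Agilent Feature Extraction 11.0.1.1, and the deposited spot and local background intensity values are not normalized. A second deposited file gives log2 signals, normalized by the authors in GeneSpring per the methods, in which each column equals the log2 of the scanner's background-subtracted and dye-normalized signal minus 1 constant. Flags for background and outliers came from the same software. No per-sample column was left unused (0). Each column was centered on its median. The members and all lists were chosen with earlier results of these data known.

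BHD and control were compared with limma 3.58.1 in R 4.3.3 on all 9 arrays, on log2 values, with a 2-sided test and Benjamini-Hochberg adjustment over 32860 probes, and the fit was tested on simulated data. Python 3.11.15, pandas 2.3.3 and matplotlib 3.10.9 were used for tables and figures. As alternatives, no centering, centering on the probe class, scanner median intensity with normexp (offset 50), loess and Aquantile, other background and outlier rules, a 2-fold threshold, blocks for replicate number and slide, the 6 control and BHD arrays alone, and each array left out were tried. The arrays' number, 3 per group, limits the precision. Probes named were, among members in which the model rats lay above all others in both fractions, those with the largest difference in the weaker fraction, at most 2 for each comparison, and 2 more chosen after their values were seen. Marker and m6A machinery lists could not be counted, since 1 of 39 genes was matched through the rat gene table. The deviations of same-numbered control and BHD arrays from their group means correlated with r of 0.167, 0.0938 and 0.0365 in IP and 0.0169, −0.0439 and −0.0271 in Sup, so the numbers were not treated as pairs. For model and BHD arrays r was 0.066, 0.383 and 0.208 in IP and 0.138, 0.178 and 0.227 in Sup, above 0.1 throughout in Sup but not in IP, and that comparison was not tested, since the rule used it. Each member has 1 spot per array.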

Additional observations from a re-analysis of the deposited data

How the results depend on the processing

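The number of members depended on the settings. It was 54 without centering (31 of the 32 kept), 11 with the scanner's median intensities after normexp, loess and Aquantile (11 kept), 11 with signal above background on all 9 arrays, 49 with no background rule and 13 at a 2-fold threshold. It was 33 with centering on the probe class, 27 without outlier spots and 43 within slides. With each array left out it ran from 22 (without control replicate 1) to 71 (without model replicate 2). Without a model array, signal above background was asked only on the remaining model arrays, a looser filter. On the scanner's median intensities the median differences of the 32 kept their direction but were smaller, at 0.38 in IP and 0.56 in Sup for model against control and −0.68 and −0.90 for BHD against model. Without centering, the median of all probes shifted by −0.05 in IP and 0.26 in Sup for model against control, by −0.23 and −0.24 for BHD against model, and by −0.28 in IP for BHD against control.

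For BHD against control, 3 members were called in IP, 5 in Sup and 1 in log2(IP/Sup), where 3573, 4964 and 1585 of all 32860 probes were called. Without centering the members called were 7, 4 and 3 (4507, 4028 and 3279 of all probes). With the scanner's median intensities they were 2, 3 and 0 (1186, 1892 and 284). With dim probes filtered they were 3, 4 and 0 (3459, 4901 and 1497 of the probes kept). With adjusted p in limma they were 0, 0 and 0 (3, 6 and 2). With the replicate block, for numbers that were not shown to pair the rats, they were 3, 3 and 1 (4034, 5311 and 1857 of all probes). With the slide as a block they were 3, 3 and 1 (2594, 1654 and 1798). That fit links the controls and the BHD rats only through the model arrays. With each control and BHD array left out, the members called ran from 2 to 8 in IP, from 3 to 8 in Sup and from 1 to 2 in log2(IP/Sup). The calls over all probes ran from 2121 to 5073, from 3008 to 7180 and from 1239 to 2775. Both highest numbers of members in IP and Sup came without control replicate 3, and without BHD replicate 3 the number of members in IP was 6. Where neither the adjustment nor a stricter filter lowered a number by its construction, the cause was not tested.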

Other observations

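The opposite pattern, lower in the model group and higher with BHD by the same threshold in both fractions, was found for 17 probes of the same class. Control replicate 3 was at least 2-fold below both other controls in both fractions for 10 of these 17, against 1.78% of the 19856 background probes. In the other probe classes 13 of 5695 probes above background met the rule of the 32 members, or 0.228%, and control replicate 3 was at least 2-fold above the other controls in 3 of the 13.

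The member spots were spread over the array, from row 6 to 527 and from column 3 to 83, and 5 of their 496 pairs lay within 10 rows and 10 columns of each other.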
